A study of Rattus norvegicus with 6 samples.

Results

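Of the 28358 genes in the deposited tables, 9 genes of interferon signalling and response are described here: Stat2, Irf1, Irf7, Irf9, Ifit2, Ifit3, Isg15, Bst2 and Ifi27. They were taken by gene symbol, and all 9 symbols were present in the tables of all 6 libraries. RNA was from neuroretina of 14-month-old male rats of the Goto-Kakizaki (GK) strain, which is lean and has type 2 diabetes. In the spironolactone group (3 libraries), 5 µL of PLGA microspheres holding 6.2 µg of spironolactone, a blocker of the mineralocorticoid receptor, had been injected into the vitreous; in the non-loaded group (3 libraries) the PLGA microspheres held no drug. Retinas were taken 2 months after the single injection, so both groups carry the diabetic background, the injection and the polymer, and neither shows the untreated eye. Whether the libraries stand for separate animals is not stated in the labels; the p-values therefore refer to variation among these libraries, part of which may be technical.

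Interferons are cytokines that switch on antiviral genes. Type I interferon binds the receptor made of Ifnar1 and Ifnar2, whose Janus kinases phosphorylate STAT proteins, Stat2 among them; these join Irf9 and bind the interferon-stimulated response element (ISRE) in the promoters of their target genes. Interferon-gamma has a receptor of its own and acts on gamma-activated sites (GAS), for example at Irf1, and Irf7 amplifies the type I response. Ifit2, Ifit3, Isg15, Bst2 and Ifi27 are among the effectors that accumulate once the pathway is active, and in the retina such genes are known to be induced by infection and inflammation.

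The promoter windows of the members are shown first because the ISRE is the feature that ties receptor signalling to the effectors. RefSeq sequences of GRCr8, a later rat assembly than the rn6 named by the submitters, were available for 7 of the 9 members, each covering 250 bases before and 50 after the start; Ifit2 and Isg15 were without an entry. The core GAAANNGAAA, or TTTCNNTTTC on the other strand, was found in 4 of the 7 windows (Ifi27, Bst2, Ifit3 and Irf7), against 3.92% of all 33469 windows of the same 300 bases. The stretches below lie before the start site, with the core in capitals. They are Ifi27 at chr6:128355128-128355252 on the plus strand, Bst2 at chr16:18255068-18255113 on the minus strand, Ifit3 at chr1:241527267-241527306 on the plus strand and Irf7 at chr1:205800068-205800107 on the minus strand, each written in the direction of its gene.
Ifi27: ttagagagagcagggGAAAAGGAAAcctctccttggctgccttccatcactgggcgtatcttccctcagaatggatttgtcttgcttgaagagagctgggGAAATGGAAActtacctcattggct
Bst2: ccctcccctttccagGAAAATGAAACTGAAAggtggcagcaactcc
Ifit3: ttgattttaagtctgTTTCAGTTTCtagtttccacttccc
Irf7: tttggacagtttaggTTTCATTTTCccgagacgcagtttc
Ifi27 had separate cores 169 and 84 bases before its start, and Bst2 had overlapping cores beginning 131 and 125 bases before it. Ifit3 and Irf7 had 1 core each, on the other strand, 44 and 69 bases before the start. The GAS core TTCNNNGAA, which reads the same on both strands, occurred in the windows of Irf1, Irf9 and Bst2, where it overlapped an ISRE core, and in 8.87% of all windows. These are letter matches, not shown to be bound in these retinas.

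Of the 9 members, Ifi27 was lower after spironolactone and no other member passed the test. Ifi27 fell to 0.708 of the non-loaded level (95% interval 0.590 to 0.851). The groups overlapped for the other 7 tested members. Isg15 was too low to be tested. Of the 8 tested members, 0 were called higher and 1 lower at an adjusted p of 0.05 (edgeR quasi-likelihood test, Benjamini-Hochberg over all 13242 tested genes), and 1 had an unadjusted p below 0.05. Over all tested genes 2.63% were called, 1.87% higher and 0.763% lower, and 15.8% had an unadjusted p below 0.05. The median log2 fold change was 0.03 for the tested members and -0.003 for all tested genes. Limma-voom called 0 members in either direction. DESeq2, whose own filter gave an adjusted p to 3 of the 8 (Stat2, Irf9 and Ifi27), called 0 higher and 1 lower. With that filter turned off, a choice made after seeing the data, all 8 had a DESeq2 value, and again 0 were called higher and 1, Ifi27, lower (adjusted p = 0.0318).

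**Figure D1:**
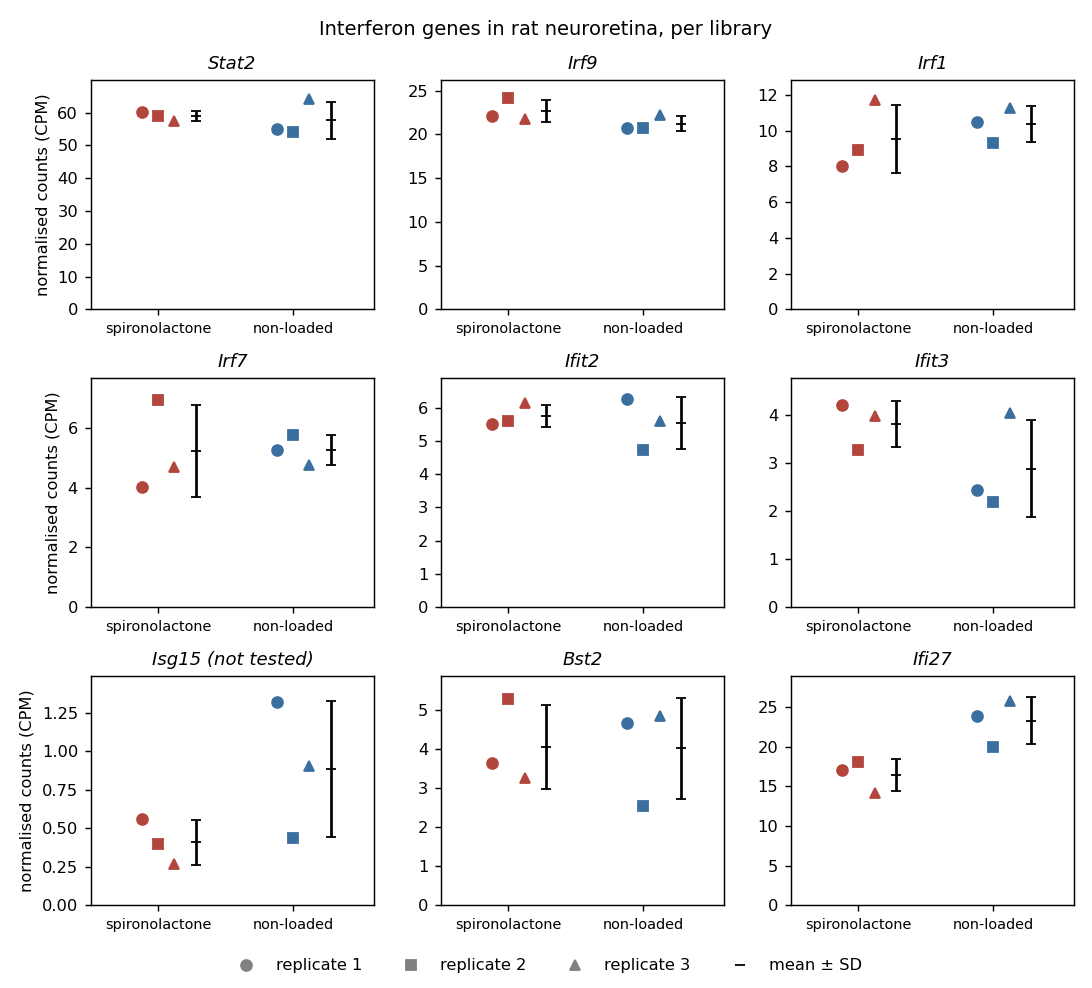
Normalised counts (CPM, vertical axes from 0) of the 9 members in each library, spironolactone in red and non-loaded in blue, with symbols for replicates and bars for mean ± SD (n = 3). The groups stand apart for Ifi27, with 14.2 to 18.0 CPM after spironolactone and 20.0 to 25.8 CPM after non-loaded microspheres, and overlap for the other 8.

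The transcription factors of the pathway are given first. Stat2, which carries Irf9 in the activated complex, had 60.3, 58.9 and 57.4 CPM in the spironolactone libraries, against 54.9, 54.0 and 64.2 CPM in the non-loaded libraries (CPM are counts scaled to a common library total with TMM factors). The spironolactone libraries lay inside the range of the non-loaded ones. Its log2 fold change was 0.03 ± 0.08 (SE; 95% interval -0.14 to 0.19, edgeR adjusted p = 0.922). With 543 to 781 counts per library, Stat2 was the most deeply counted member and its interval the narrowest.

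Irf9, the DNA-contacting part of the same complex, had 22.1, 24.1 and 21.8 CPM in the spironolactone libraries, against 20.7, 20.7 and 22.2 CPM in the non-loaded libraries. The 2 lower spironolactone libraries lay just below non-loaded replicate 3, so the groups overlapped. The log2 fold change was 0.10 ± 0.10 (95% interval -0.12 to 0.31, edgeR adjusted p = 0.702).

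Irf1, a factor that interferon-gamma induces early, had 8.03, 8.94 and 11.7 CPM after spironolactone and 10.5, 9.33 and 11.3 CPM after non-loaded microspheres. Spironolactone replicate 3 was the highest of all 6 and spironolactone replicate 1 the lowest. The log2 fold change was -0.12 ± 0.17 (95% interval -0.47 to 0.23, edgeR adjusted p = 0.792).

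Irf7, the factor that amplifies type I interferon production, had 4.01, 6.94 and 4.70 CPM in the spironolactone libraries, against 5.26, 5.76 and 4.77 CPM in the non-loaded libraries. The spironolactone group held both the highest and the lowest library, and its coefficient of variation was 29.4%, against 9.38% in the non-loaded group; counting error alone gives 12.8% at the depth of the spironolactone libraries and 13.1% at that of the non-loaded ones. Irf7 averaged 5.22 ± 1.53 CPM after spironolactone and 5.26 ± 0.494 CPM after non-loaded microspheres (SD, n = 3 each), and the 95% interval of the log2 fold change ran from -0.49 to 0.49 (edgeR adjusted p = 0.999).

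Among the effectors, Ifit2, whose protein binds RNA and hinders translation of viral messages, had 5.51, 5.59 and 6.14 CPM after spironolactone and 6.27, 4.71 and 5.59 CPM after non-loaded microspheres. The non-loaded range enclosed the spironolactone one. The log2 fold change was 0.06 ± 0.20 (95% interval -0.35 to 0.47, edgeR adjusted p = 0.929).

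Ifit3, which stabilises the complexes of its family, had 4.20, 3.27 and 3.97 CPM in the spironolactone libraries, against 2.43, 2.18 and 4.03 CPM in the non-loaded libraries. Non-loaded replicate 3 stood with the spironolactone libraries, and the other non-loaded libraries were below all of them. This was the widest positive difference among the members, 0.39 ± 0.28 on the log2 scale (95% interval -0.20 to 0.98), and it missed the threshold (edgeR adjusted p = 0.544). Ifit3 was counted 24 to 49 times per library. Without non-loaded replicate 3 the log2 fold change was 0.72 (adjusted p = 0.275), and without any other single library it lay between 0.22 and 0.49.

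Bst2, or tetherin, which holds budding virus at the cell surface, had 3.64, 5.27 and 3.25 CPM after spironolactone and 4.65, 2.53 and 4.85 CPM after non-loaded microspheres. High and low libraries were mixed in both groups. The log2 fold change was 0.03 ± 0.28 (95% interval -0.56 to 0.61, edgeR adjusted p = 0.979), and on log2(TPM + 1) it was -0.07. TPM, the deposited transcript abundance, also divides by gene length, and Bst2 is 1 of the 2 members whose deposited length differed between libraries. The length was 583 to 664 bases in the spironolactone libraries and 572 to 601 bases in the non-loaded libraries.

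Isg15, a ubiquitin-like protein that is joined to other proteins, was counted 6, 5 and 3 times in the spironolactone libraries and 13, 5 and 11 times in the non-loaded libraries. The highest spironolactone library was above the lowest non-loaded one, so the groups overlapped. Summed over each group, 14 counts after spironolactone and 29 after non-loaded microspheres gave a ratio of 0.471 after scaling for depth, with an exact 95% interval of 0.230 to 0.921 that covers counting error only. Between libraries the difference gave p = 0.20 in a two-sided exact permutation test on log2(CPM + 0.1), in which 3 against 3 cannot go below 0.10. Isg15 did not pass the filter on low counts; with no filter its log2 fold change was -1.07 (edgeR adjusted p = 0.522). It was also tested where leaving out a library let it through the filter, with adjusted p between 0.304 and 0.656.

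Ifi27, a small hydrophobic protein of mitochondria and internal membranes that interferon induces in human cells, was counted 183, 226 and 157 times in the spironolactone libraries and 236, 229 and 314 times in the non-loaded libraries. These were 17.1, 18.0 and 14.2 CPM after spironolactone, against 23.9, 20.0 and 25.8 CPM after non-loaded microspheres. All 3 spironolactone libraries lay below all 3 non-loaded ones, with spironolactone replicate 2 and non-loaded replicate 2 the nearest pair. Ifi27 averaged 16.4 ± 2.01 CPM after spironolactone and 23.2 ± 2.98 CPM after non-loaded microspheres (SD, n = 3 each). Ifi27 fell by 0.50 ± 0.13 on the log2 scale (95% interval -0.76 to -0.23, edgeR adjusted p = 0.0448), which placed it 297th by p among the tested genes. Groups stood apart in CPM, in the lower direction, for 9.48% of all tested genes and for 1 of the 8 tested members.

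The direction of Ifi27 held without each library in turn, with log2 fold changes from -0.60 to -0.41, but the call did not. It passed without spironolactone replicate 1 or without non-loaded replicate 2. The adjusted p was 0.102 without spironolactone replicate 2 and 0.193 without spironolactone replicate 3. Leaving out non-loaded replicate 1 gave 0.160, and leaving out non-loaded replicate 3 gave 0.161. With all 6 libraries it also missed with limma-voom (0.0512) and on log2(TPM + 1) with limma (0.125). Sample titles are numbered 8, 10 and 11 in the spironolactone group and 2, 3 and 4 in the non-loaded group, so an effect of that number and of the drug cannot be told apart. With the number in the edgeR model, the log2 fold change of Ifi27 was -0.35 and 0 of all tested genes passed (562 had an unadjusted p below 0.05).

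The neighbouring relative Ifi27l2b, named here outside the rule for naming genes, had at most 1.89 CPM in a library and a log2 fold change of -0.19 ± 0.51 (adjusted p = 0.911). How reads that match both were divided between them cannot be checked from the tables.

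**Figure D2:**
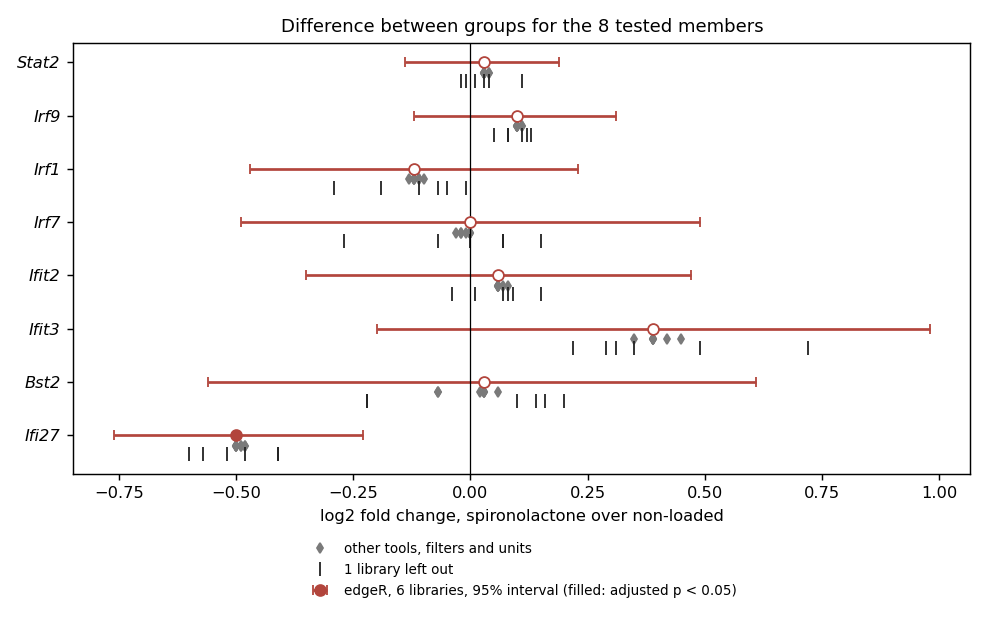
Log2 fold change (horizontal axis, spironolactone over non-loaded) of the 8 tested members, with circles and 95% intervals from edgeR on 6 libraries, diamonds for other tools, filters and units, and ticks for fits with 1 library left out; the fit with the title number is not drawn. The interval of Ifi27 lies from -0.76 to -0.23 and is the only one clear of 0, and the ticks of Ifit3 run from 0.22 to 0.72.

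Levels of different genes were compared per length, in TPM. In spironolactone libraries the order of mean TPM was Ifi27 (47.0), Stat2 (30.4), Irf9 (28.8), Bst2 (15.6), Irf1 (9.26), Irf7 (5.24), Ifit3 (3.71), Ifit2 (3.24) and Isg15 (0.653). In non-loaded libraries it was Ifi27 (66.0), Stat2 (29.7), Irf9 (26.7), Bst2 (16.9), Irf1 (9.94), Irf7 (5.23), Ifit2 (3.08), Ifit3 (2.77) and Isg15 (1.39). Stat2 and Irf9 overlapped between libraries in both groups, as did Ifit2 and Ifit3. Irf7 and Ifit3 overlapped in the spironolactone group, and Bst2 with Irf1 and Ifit3 with Isg15 in the non-loaded group. Ifi27 stood above every other member in every library. It made up 29.9% to 34.7% of the members' summed TPM after spironolactone and 40.1% to 41.2% after non-loaded microspheres, while the sum of the other 8 was 94.6 to 101 TPM after spironolactone and 82.4 to 108 TPM after non-loaded microspheres.

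The deviations of the members from their group mean are given as a description of 3 libraries a group, without a test of one group against the other. Non-loaded replicate 2 was below its group mean for 8 of the 9 members and non-loaded replicate 3 above it for 8, with median deviations of -0.21 and 0.14 on the log2(CPM + 0.1) scale. Of all tested genes, 49.2% were below the mean in non-loaded replicate 2 and 51.0% above it in non-loaded replicate 3. The spironolactone libraries were above their mean for 4, 6 and 3 members. Over the whole table, the library nearest to non-loaded replicate 3 was spironolactone replicate 1, at 4.15 chi-square units a gene; its distance was 4.38 to non-loaded replicate 2 and 4.84 to non-loaded replicate 1. Each of the other 5 libraries was nearest to one of its own group. The summed level of 25 microglia and macrophage markers was 365, 364 and 356 TPM in the spironolactone libraries and 313, 293 and 400 TPM in the non-loaded libraries, so non-loaded replicates 2 and 3 were also the lowest and the highest of all 6 there. Of these markers 24 were tested and 0 were called in either direction, and Siglech was at 0 in all 6 libraries. Non-loaded replicate 2 was also the lowest of all 6 for the summed endothelial (376 TPM) and Müller glia markers (6790 TPM). Non-loaded replicate 3 was the highest for both (424 and 7390 TPM). The rod, pigment epithelium, erythrocyte, and lymphocyte and neutrophil sums did not have this order. The part of any of these markers in the spread of the members was not tested. In whole retina, fewer cells of a type and less RNA per cell cannot be told apart.

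**Figure D3:**
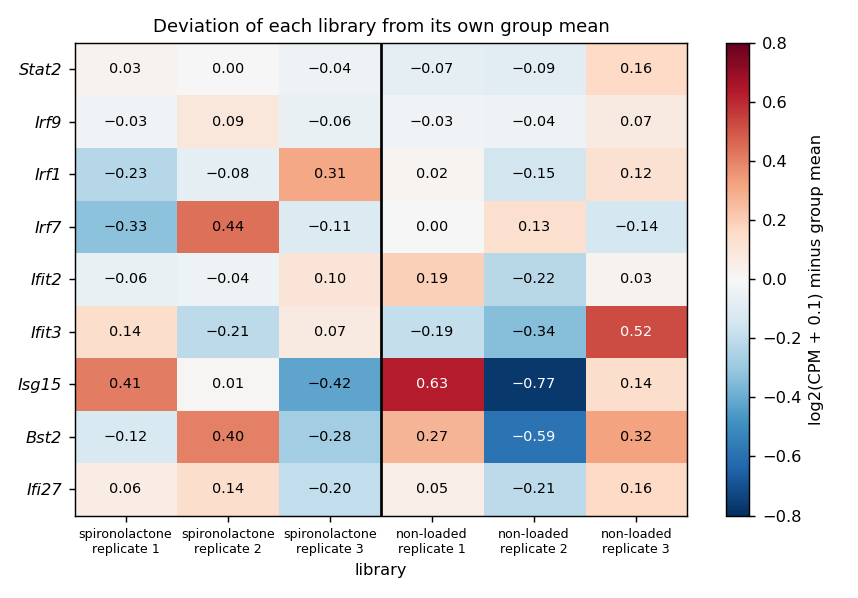
Deviation of each library (columns) from the mean of its own group on the log2(CPM + 0.1) scale for the 9 members (rows), red above and blue below the mean. The column of non-loaded replicate 2 is below 0 for 8 members and that of non-loaded replicate 3 above 0 for 8, while the spironolactone columns are mixed.

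Lists of markers of other cell types differed in how many genes were called, with the most calls among rod markers. Of 13 rod markers 8 were called lower, with a summed level of 53000, 53900 and 48300 TPM in the spironolactone libraries and 73700, 70800 and 60500 TPM in the non-loaded libraries. The defining genes of the rods, the most numerous cells of the neuroretina, were thus abundant in all libraries. Müller glia markers, 13 in all, had 3 called lower, with 6900 to 6960 TPM after spironolactone and 6790 to 7390 TPM after non-loaded microspheres. Pigment epithelium markers summed to 126 to 302 TPM after spironolactone and 264 to 313 TPM after non-loaded microspheres, with 0 of 11 tested members called. Endothelial markers summed to 384 to 396 TPM after spironolactone and 376 to 424 TPM after non-loaded microspheres, with 1 of 14 called, higher. Lymphocyte and neutrophil markers summed to 12.4 to 27.8 TPM after spironolactone and 10.3 to 19.0 TPM after non-loaded microspheres, and 7 of the 18, among them the B-cell marker Ms4a1, were at 0 in all libraries. Of these sums, Cd4 alone made up 9.71 to 10.24 TPM after spironolactone and 7.72 to 15.9 TPM after non-loaded microspheres. The T-cell genes Cd3e and Cd3g of the same list had at most 5 and 2 counts in a library, and Cd3d had 0 in all. In spironolactone replicate 1, which had the highest sum, S100a8 and S100a9 added 8.92 and 7.16 TPM. Erythrocyte markers, of which 1 of 2 tested was called higher, summed to 374 to 685 TPM after spironolactone and 370 to 441 TPM after non-loaded microspheres. The called gene, Hba-a2 (0.58 ± 0.14, edgeR adjusted p = 0.0304), overlapped between groups in CPM. The other, Hbb, missed the threshold (0.18 ± 0.20, edgeR adjusted p = 0.724). The part of these cell markers in the difference of Ifi27 was not tested.

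The rest of the pathway was described with lists of its parts, 156 genes in the tables, of which 121 were tested. In all, 2 rose and 2 fell, or 3.31% of them, against 2.63% of all tested genes, and the median log2 fold change was 0.01. The genes called were Ptpn2 and Cd74, which rose, and Tapbp and Ifi27, which fell.

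The genes of the interferons themselves were at or near 0. Of 9 interferon ligand genes, 7 were at 0 in all libraries, Ifng among them, while Ifnb1 had 1 count and Ifne 2 counts in all. A count of 0 allows up to 0.239 to 0.304 CPM per library (3 counts). The 6 receptor genes tested had 0 calls and 0 unadjusted p below 0.05 (edgeR), and a median log2 fold change of -0.01. Groups stood apart in CPM for 3 of the 6, Ifnar2 and Il10rb higher and Ifnar1 lower, against 20.9% of all tested genes in either direction. Ifnar1, the first chain of the type I receptor, had 98.2 ± 1.89 CPM after spironolactone and 103 ± 0.370 CPM after non-loaded microspheres (log2 fold change -0.07 ± 0.06, adjusted p = 0.634). Its partner Ifnar2 had 5.24 ± 0.673 CPM after spironolactone and 3.95 ± 0.320 CPM after non-loaded microspheres and missed the threshold (0.41 ± 0.21, adjusted p = 0.365). Il10rb, a chain shared by the interferon-lambda and interleukin-10 receptors, had 2.55 ± 0.459 CPM after spironolactone and 1.70 ± 0.509 CPM after non-loaded microspheres (0.56 ± 0.32, adjusted p = 0.423).

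Among 18 Janus kinases, STATs and their inhibitors, 1 rose and 0 fell. It was Ptpn2, a phosphatase that removes phosphate from Janus kinases. Ptpn2 had 35.4, 33.6 and 37.1 CPM in the spironolactone libraries, against 27.2, 26.6 and 24.9 CPM in the non-loaded libraries, so that the groups stood well apart. It rose by 0.43 ± 0.09 on the log2 scale (95% interval 0.24 to 0.62, edgeR adjusted p = 0.0139). It passed without spironolactone replicate 1 or non-loaded replicate 1 and missed the threshold without spironolactone replicates 2 (0.0541) or 3 (0.077) or non-loaded replicates 2 (0.0579) or 3 (0.0591). The kinase gene Jak2 (0.18 ± 0.08, adjusted p = 0.259) and Pias1, an inhibitor of STAT signalling (0.15 ± 0.06, adjusted p = 0.233), missed the threshold.

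Of 11 tested interferon regulatory factors and their binding partners 0 were called and 0 had an unadjusted p below 0.05 (edgeR); the member list holds 3 of them. The largest difference was that of Irf5, a factor of macrophages, at 2.88 ± 0.624 CPM after spironolactone and 3.82 ± 1.25 CPM after non-loaded microspheres (-0.41 ± 0.29, adjusted p = 0.525). The 18 tested sensors of foreign nucleic acid and their adaptors also had 0 calls, with 1 unadjusted p below 0.05: Mavs, the mitochondrial adaptor of the RNA sensors, had 32.4 ± 0.799 CPM after spironolactone and 38.0 ± 1.47 CPM after non-loaded microspheres (-0.23 ± 0.08, adjusted p = 0.178).

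Of 46 tested antiviral effector genes 0 rose and 1, Ifi27, fell, with a median log2 fold change of 0.05. Ifitm3, which blocks entry of enveloped virus, had 6.05 ± 0.374 CPM after spironolactone and 4.08 ± 0.701 CPM after non-loaded microspheres (0.56 ± 0.21, adjusted p = 0.184). Trim21, an antibody receptor inside cells, had 9.10 ± 1.74 CPM after spironolactone and 6.74 ± 1.14 CPM after non-loaded microspheres (0.43 ± 0.19, adjusted p = 0.279), and Ifi35 had 1.81 ± 0.488 CPM after spironolactone and 2.93 ± 0.501 CPM after non-loaded microspheres (-0.69 ± 0.31, adjusted p = 0.281). Each missed the threshold, and they pointed in different directions. In the ISG15 system, Herc6, which attaches Isg15 to proteins in mice, came nearest to it: 31.7, 30.8 and 35.3 CPM in the spironolactone libraries, against 26.2, 24.9 and 26.1 CPM in the non-loaded libraries (0.34 ± 0.09, adjusted p = 0.0605). It passed with robust shrinkage (0.0485) or no filter on low counts (0.0354). Uba7, which activates Isg15, had 3.79 ± 0.475 CPM after spironolactone and 4.52 ± 0.855 CPM after non-loaded microspheres (adjusted p = 0.645), and Usp18, which removes it, 1.71 ± 0.389 CPM after spironolactone and 2.29 ± 0.401 CPM after non-loaded microspheres (adjusted p = 0.579).

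In the interferon-gamma response list 1 of 21 tested genes rose and 1 fell, with a median log2 fold change of -0.06. Tapbp, a loader of peptide onto MHC class I, had 56.1, 55.3 and 48.7 CPM in the spironolactone libraries, against 89.4, 81.7 and 83.7 CPM in the non-loaded libraries (-0.67 ± 0.07, edgeR adjusted p = 4.4e-05), and passed without each library in turn. Cd74, the MHC class II invariant chain, had 10.5, 14.0 and 11.4 CPM after spironolactone, against 4.35, 3.31 and 9.62 CPM after non-loaded microspheres (1.04 ± 0.27, adjusted p = 0.0499). Non-loaded replicate 3 stood near the spironolactone libraries, and without it the log2 fold change was 1.65. With all 6 libraries the Cd74 call was lost with robust shrinkage (0.232), on log2(TPM + 1) (0.147) and log2(TPM + 0.1) (0.152), and with DESeq2 without its own filter (0.302). It was also lost without non-loaded replicates 1 (0.225) or 2 (0.172) or spironolactone replicates 2 (0.255) or 3 (0.124). Psme2, a proteasome activator subunit, had 15.5 ± 1.22 CPM after spironolactone and 20.1 ± 0.814 CPM after non-loaded microspheres and missed the threshold (-0.38 ± 0.11, adjusted p = 0.0935).

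**Figure D4:**
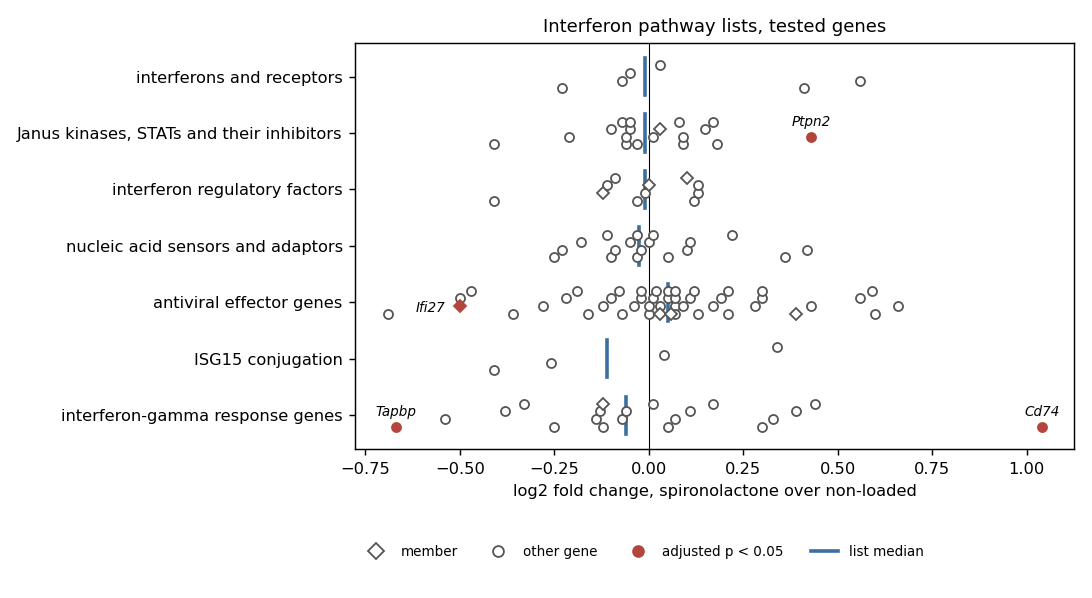
Log2 fold change (horizontal axis, spironolactone over non-loaded) of the tested genes of each interferon pathway list (rows), diamonds for the members, filled symbols for an adjusted p under 0.05 and blue bars for list medians; a gene can stand in several lists. The medians lie between -0.11 and 0.05, and Ptpn2, Cd74, Tapbp and Ifi27 are the filled symbols.

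The genes whose level followed Ifi27 most closely over the 6 libraries, by Pearson r of log2 CPM, were Slc6a11, a GABA transporter of glia (r = 0.991, Spearman rho = 0.94), Cryab, a small heat shock protein (r = 0.983, rho = 1) and Commd4 (r = 0.983, rho = 1). For Ifit3, the tested member with the smallest p among those with a positive difference, they were Ephx4 (r = 0.997, rho = 1), Enpp1 (r = 0.994, rho = 0.77) and Smarcd3 (r = 0.988, rho = 0.94). None of these 6 genes passed the test between groups. They were picked as the closest of all tested genes over only 6 libraries, so high values of r come with the choice, and they are given as a description. Slc6a11, Cryab and Commd4 also had groups apart in CPM, in the lower direction like Ifi27, against 9.48% of all tested genes. The groups overlapped for Ephx4, Enpp1 and Smarcd3, as they did for Ifit3. This likeness between groups also comes with the choice, because a gene with rho = 1 has the same library order as its member.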

How the data were processed

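Members and gene lists were chosen with earlier results of these data known. The submitters' processing notes name FastQC, Trimmomatic, STAR 2.5.3a, RSEM 1.2.28 and rn6; no annotation version or strand setting is given in the sources used here, so reads of overlapping or antisense genes may not be separable, although per the labels' protocols the library kit was stranded. The authors deposited 1 RSEM table per library, which per the file headers holds unscaled expected counts, TPM (used in alternatives), FPKM (not used) and lengths. RSEM divides reads shared by related genes, so the Ifit and Ifi27 families are less certain.

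Expected counts were rounded. Genes kept by edgeR's filterByExpr (13242, at least 99.9% of counts; libraries held 9996198 to 12589466) were compared with edgeR 4.0.16 in R 4.3.3 (TMM, glmQLFit, glmQLFTest, two-sided), adjusted by Benjamini-Hochberg over all tested genes, threshold 0.05. SE is the log2 fold change over the square root of F. The fit was tested on simulated data. Counts of no 2 libraries matched within sampling noise (3.55 to 13.3 chi-square units per gene). Intervals on counts cover counting error only. Alternatives were RLE factors, 2 other filters, DESeq2 1.42.0 with and (added later) without its independent filtering, limma-voom (limma 3.58.1), robust shrinkage, log2(TPM + 1) and log2(TPM + 0.1), the title number as covariate, and each library left out. Besides the members, the genes named are every called gene and up to 4 genes of smallest p of each pathway list, of which a part is given, and the 3 genes most like Ifi27 and Ifit3. List names absent from the tables were not analysed here. Gene neighbours and promoters came from RefSeq GRCr8.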

Additional observations from a re-analysis of the deposited data

How the results depend on the processing

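With no filter on low counts, 439 genes were higher and 163 lower, against 247 and 101 in the reported edgeR test. On log2(TPM + 1) the counts were 82 and 18, on log2(TPM + 0.1) 79 and 16, and with the title number as covariate 0 and 0. Leaving out 1 library gave 81 to 421 higher and 30 to 200 lower. The 1 member called lower (Ifi27) became 0 with limma-voom, on both TPM scales and with the title number, and 0 to 1 with a library left out. Of the pathway genes, 2 were higher and 2 lower; 1 was higher with DESeq2, which gave an adjusted p to 42 of the 121 and none to Cd74, and 1 with its filter turned off (chosen after seeing the data); with robust shrinkage 2 were higher, Herc6 in place of Cd74; 1 was lower with limma-voom, 1 and 1 on both TPM scales, 0 and 0 with the title number, and 0 to 2 higher and 1 to 2 lower with a library left out. The members gave 123 values under the alternatives: 99 kept direction and side of the threshold, 8 (all Ifi27) missed the threshold and 16, none of them called, changed sign.

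With the title number as covariate, the log2 fold change was -0.10 for Stat2, -0.02 for Irf9, -0.08 for Ifit3, -0.09 for Bst2, -0.11 for Ifnar2, -0.10 for Pias1, -0.31 for Trim21 and -0.30 for Cd74. Bst2 was at -0.07 on both TPM scales, Ifi27l2b at 0.01 on log2(TPM + 0.1), and Irf7 at 0.00 with both other filters. With a library left out, Stat2 ranged from -0.02 to 0.11, Irf7 from -0.27 to 0.15, Ifit2 from -0.04 to 0.15, Bst2 from -0.22 to 0.20 and Ifi27l2b from -0.57 to 0.59. The cause of these changes was not tested; Irf7, Stat2, Ifit2 and Bst2 have differences near 0. The low counts of Isg15, Ifit3 and Bst2 limit what could be detected for them. Replicates are numbered here in the order of the title numbers within each group, because the labels give no replicate numbers. No paired analysis was possible, as the labels name no pairing or batch that links libraries of the groups.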
